A study of Oryza sativa Indica Group with 23 samples.

Results

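The genes described here are the rice genes of 5 auxin families: the PIN efflux carriers, the Aux/IAA proteins, the auxin response factors (ARF), the GH3 amido synthetases and the SAUR proteins. They were chosen by name, as genes whose symbol or synonym in the RefSeq gene table of rice is PIN, IAA, ARF, GH3 or SAUR followed by a number, with ADP-ribosylation factors left out. The table named 70 such genes, and 58 of them had a probe set that the array annotation gives to that gene alone, out of 17905 genes with such a probe set. Of these 58, 26 were Aux/IAA genes, 17 ARF genes, 9 GH3 genes, 5 PIN genes and 1 a SAUR gene. The 12 genes not analysed here for lack of such a probe set were ARF5, ARF6, ARF8, ARF19, ARF21, ARF25, IAA11, IAA29, PIN1A, PIN1B, PIN1C and PIN5B. Rice names for these families overlap, and 1 name per gene is used: ARF1 is also listed as ARF16, PIN9 as PIN5, PIN5A as PIN6, PIN5C as PIN4 and PIN5B, PIN3A as PIN10A and PIN3T, and IAA4 as IAA20, while ARF16 and IAA20 below are other genes.

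Root RNA was measured on 23 Affymetrix rice arrays of 4 indica genotypes, grown in sand under nutrient solution and harvested on day 30. Salt roots came from plants that received NaCl and CaCl2, added from day 22 in 2 steps over 3 days up to 7.4 dS per m, and control roots from plants that received the nutrient solution without added salt. The salt-tolerant line FL478, the tolerant line IR63731 and the tolerant landrace Pokkali had 3 arrays in each treatment, and the sensitive variety IR29 had 3 salt arrays and 2 control arrays. FL478 is an inbred line from a cross of IR29 with Pokkali, so the 4 genotypes are not independent of each other. The labels call the arrays of a group biological replicates and number them 1 to 3, but give neither the meaning of the number nor how many plants an array holds.

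Auxin is moved from cell to cell by carriers, among which the PIN proteins export it. In the nucleus it brings Aux/IAA repressors to their degradation, which frees the ARF proteins that bind the promoters of auxin-responsive genes. Aux/IAA, GH3 and SAUR genes include many that auxin itself induces, and GH3 enzymes join auxin or jasmonate to amino acids. In roots this pathway directs elongation, gravitropism and the formation of lateral and crown roots.

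All values are log2 values after RMA, and a difference of 1 is a doubling. Where a gene had several probe sets, the one with the highest mean stood for it, and levels are compared between arrays for 1 gene, never between genes. Array medians lay between 4.31 and 4.41, and 50 of the 58 genes had a mean at or above the median probe set (4.38). At probe sets private to 1 genotype, 20 arrays lay 0.92 to 1.04 of the way to their own genotype. The other 3 lay between genotypes: on FL478 salt replicate 2 the private probe sets of FL478 stood at 0.39 and those of IR63731 at 0.60, on FL478 control replicate 3 at 0.81 and 0.22, and on IR29 control replicate 1 those of IR29 stood at 0.55 and those of IR63731 at 0.48. The values without these 3 arrays are given beside many of the results whose call or size they change, and not beside every one. Of markers fixed for the tissue, 6 root genes summed to 13.82 to 14.46 on salt arrays and 13.54 to 14.61 on control arrays, and none passed between treatments, while 5 genes of green leaf cells summed to 9.47 to 9.94 on salt arrays and 9.53 to 10.59 on control arrays, with none passing. Of 9 seed storage genes GLUB-5 was lower in salt (-0.33), and of 3 anther genes OsC4 was higher in salt (0.50). The 3 prime minus 5 prime difference of 4 control genes, a measure of RNA quality, was 0.689 ± 0.104 on salt arrays (SD, n = 12) and 0.603 ± 0.0602 on control arrays (SD, n = 11). In whole roots, fewer cells of a type and less RNA per cell cannot be told apart.

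Salt against control was first compared in the equally weighted mean of the 4 genotypes, which asks how roots change these genes whatever the genotype. Salt roots had less transcript of 3 of the 5 PIN genes, more of 5 of the 17 ARF genes and 4 of the 26 Aux/IAA genes, and less of 1 Aux/IAA gene. In limma, with Benjamini-Hochberg adjustment over all 57194 rice probe sets and an adjusted p under 0.05 as the threshold, 9 of the 58 genes were higher (15.5%, against 10.7% of all 17905 genes) and 4 were lower (6.90%, against 5.41% of all genes). The median difference of the 58 genes was 0.08, against 0.04 for all genes, and 42 of the 58 differences were above 0, where 58.7% of all genes were. Without the 3 arrays between genotypes, 10 were higher (17.2%, against 6.14% of all genes) and 3 lower (5.17%, against 3.12%). The changes of the ARF and Aux/IAA genes were small, with IAA10 the only one of these above 0.5, and PIN5A and PIN9 had the largest changes of the 58 in either direction.

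**Figure D1:**
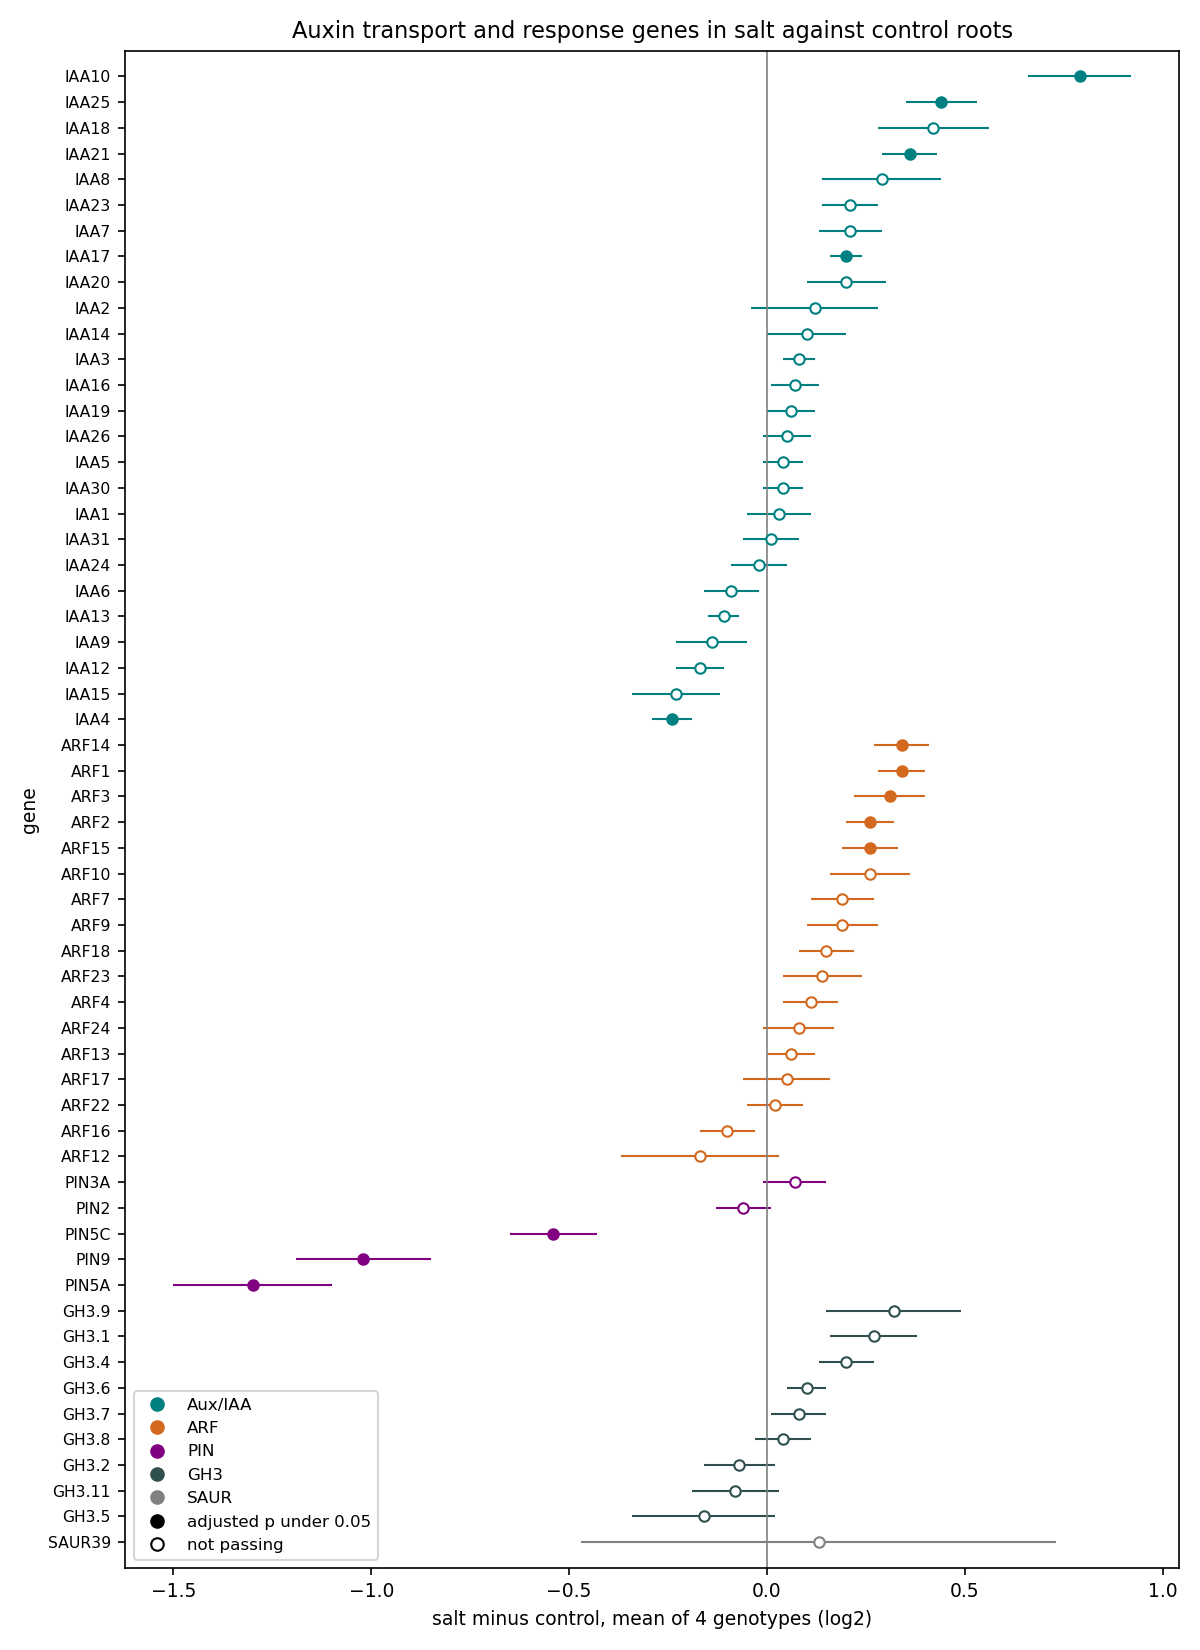
Difference between salt and control roots in the mean of 4 genotypes for each of the 58 genes, on the log2 scale (x axis), grouped by family (colours). Points are estimates with their standard error, and filled points pass an adjusted p of 0.05; PIN5A at -1.30 and PIN9 at -1.02 lie farthest to the left and IAA10 at 0.79 farthest to the right.

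Among the carriers, PIN5A changed most. PIN5 proteins of Arabidopsis lie in the membrane of the endoplasmic reticulum, where they move auxin within the cell. PIN5A read 7.89, 6.92 and 7.37 on the salt arrays of FL478 (replicates 1, 2 and 3, the order used throughout), against 8.85, 8.22 and 9.02 on its control arrays. In IR63731 it read 7.53, 7.14 and 7.82 in salt, against 8.78, 8.16 and 9.48 in control. In Pokkali it read 7.31, 7.09 and 7.54 in salt, against 8.57, 8.06 and 8.32 in control, and in IR29 6.78, 6.34 and 7.68 in salt, against 9.16 and 7.85 in control. Within each genotype every salt array lay below every control array, and over all arrays the only overlap was between FL478 salt replicate 1 and IR29 control replicate 2.

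PIN5A was 2.46-fold lower in salt (log2 difference -1.30 ± 0.20 SE, adjusted p = 0.000423). The difference was -1.30 in FL478, -1.31 in IR63731, -1.0 in Pokkali and -1.57 in IR29, and no single genotype passed on its own (adjusted p from 0.115 to 0.365). It was -0.90 in FL478 and -0.92 in IR29 when the 3 arrays between genotypes were left out. PIN5A also differed between replicate numbers, with number 2 low in both treatments (number 3 minus number 2, 0.81, adjusted p = 0.00246). With the replicate number as a block, PIN5A passed in FL478 (adjusted p = 0.00595) and in IR63731 (adjusted p = 0.0205), the genotypes whose numbers were found to pair the arrays. With the block it also passed in Pokkali (adjusted p = 0.0342) and in IR29 (-1.74, adjusted p = 0.00582), where not every pair of the same number deviated together. Salt was below control in 11 of 11 pairs of the same genotype and number, which follows from the separate groups above and adds nothing to them. In the mean of 4 genotypes it was -1.03 without the 3 arrays (adjusted p = 0.00686).

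PIN9, a carrier of a type found in monocots, was also lower, and more unevenly. In FL478 it read 8.36, 8.97 and 8.07 in salt, against 9.70, 9.99 and 9.45 in control. In IR63731 it read 9.35, 8.20 and 9.60 in salt, against 9.65, 9.88 and 9.72 in control, and in Pokkali 9.48, 9.42 and 9.29 in salt, against 9.43, 9.90 and 9.67 in control. In IR29 it read 7.15, 6.77 and 7.75 in salt, against 9.69 and 8.51 in control. Salt and control arrays did not overlap in FL478, IR63731 and IR29 and overlapped in Pokkali, and in IR63731 replicate 2 alone was far below its control arrays.

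PIN9 was 2.03-fold lower in the mean of 4 genotypes (-1.02 ± 0.17 SE, adjusted p = 0.00103, and -0.97 with adjusted p = 0.00346 without the 3 arrays). By genotype the difference was -1.25 in FL478, -0.70 in IR63731, -0.27 in Pokkali and -1.87 in IR29. Without the 3 arrays it was -1.63 in FL478 and -1.28 in IR29, so the order of these genotypes was reversed. With all arrays only IR29 passed alone (3.67-fold lower, adjusted p = 0.0339). That call was lost without any 1 of IR29 control replicate 1, which lies between genotypes (-1.28, adjusted p = 0.387), IR29 salt replicate 1 (adjusted p = 0.113) and IR29 salt replicate 2 (adjusted p = 0.0891). The salt effects on PIN9 were not shown to differ between genotypes, since limma's interaction test gave 0.0263 before and an adjusted p of 1 after adjustment.

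PIN5C, a near relative of PIN5A by name, was 1.45-fold lower (-0.54 ± 0.11 SE, adjusted p = 0.00493) at a low signal. It read 3.43, 3.58 and 3.07 in FL478 salt roots, against 4.23, 4.40 and 3.67 in control, and 3.70, 4.01 and 3.68 in IR63731 salt roots, against 4.27, 4.96 and 4.46 in control. It read 3.41, 3.63 and 3.56 in IR29 salt roots, against 4.33 and 3.97 in control. In Pokkali salt and control arrays overlapped, with 3.62, 3.86 and 3.53 in salt, against 3.43, 4.18 and 3.54 in control. With the replicate block PIN5C passed in FL478 (-0.74, adjusted p = 0.0238) and not in IR63731 (-0.76, adjusted p = 0.0575). Without the 3 arrays between genotypes its difference was -1.06 in FL478 and -0.43 in IR29, against -0.74 and -0.61 with all arrays.

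The other carriers with a probe set did not pass. PIN2, which root gravitropism needs in rice and Arabidopsis, ranged from 7.87 to 8.51 with a median of 8.18 on salt arrays and from 7.91 to 8.52 with a median of 8.27 on control arrays, a difference of -0.06 ± 0.07 SE (adjusted p = 0.692). PIN3A, studied in rice under drought, had a median of 4.84 on salt arrays and 4.71 on control arrays (0.07 ± 0.08 SE, adjusted p = 0.705). Its IR29 salt arrays read 5.67, 5.15 and 5.17, and every other array lay at 5.03 or below.

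**Figure D2:**
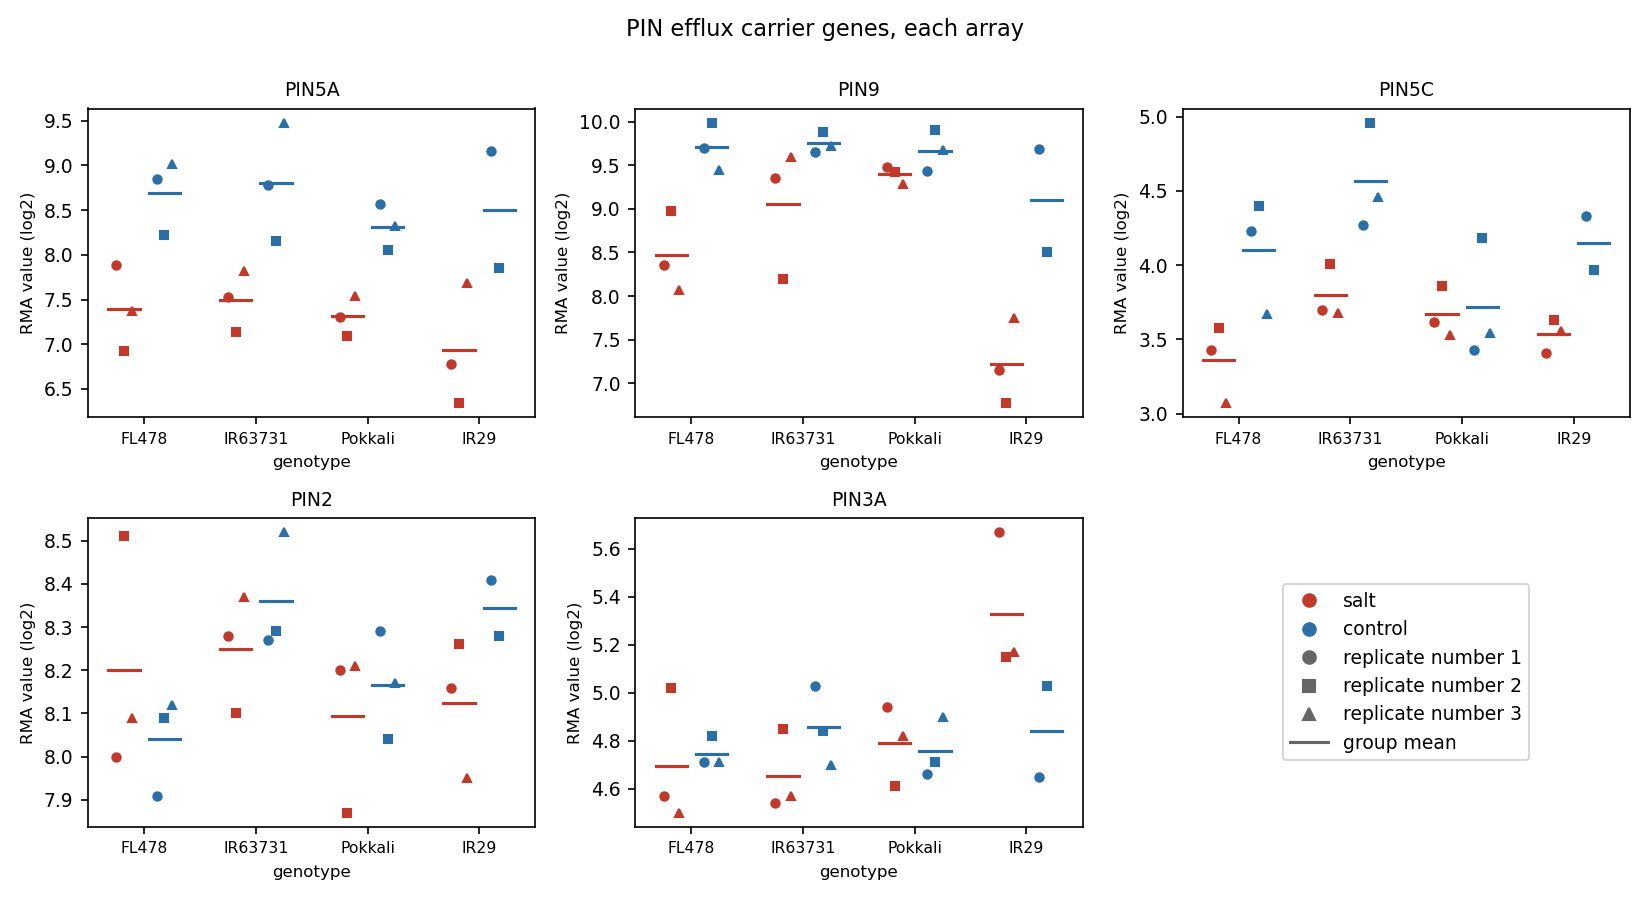
Log2 value of each PIN gene on each array (y axis) by genotype (x axis), salt left of control, with a bar at each group mean and a symbol per replicate number. PIN5A salt arrays lie below the control arrays in all 4 genotypes, and PIN9 falls to between 6.77 and 7.75 on the IR29 salt arrays.

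Of the 17 ARF genes, 5 passed, all higher in salt, and 15 differences were above 0, with a family median of 0.15. Of all genes, 10.7% were called higher and 58.7% had a difference above 0, with a median of 0.04. ARF1 read 9.93, 9.89 and 9.53 in FL478 salt roots, against 9.56, 9.49 and 9.35 in control, and 10.05, 9.92 and 9.93 in IR63731 salt roots, against 9.86, 9.62 and 9.55 in control. It read 9.88, 9.90 and 9.76 in Pokkali salt roots, against 9.41, 9.43 and 9.32 in control, and 9.94, 9.82 and 10.00 in IR29 salt roots, against 9.50 and 9.72 in control. The groups overlapped only in FL478, where salt replicate 3 lay under control replicate 1. The difference was 0.34 ± 0.06 SE (1.27-fold, adjusted p = 0.000816), between 0.28 and 0.46 in each genotype, and without the 3 arrays it was 0.20 in FL478 and 0.19 in IR29.

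ARF14 read 6.94, 6.69 and 6.59 in FL478 salt roots, against 6.27, 5.91 and 6.25 in control, and this was the only gene of the 58 to pass in FL478 alone (0.60, adjusted p = 0.0321). In IR63731 it read 6.84, 6.71 and 6.62 in salt, against 6.70, 6.51 and 6.58 in control, and in Pokkali 6.70, 6.60 and 7.00 in salt, against 6.60, 6.33 and 6.63 in control. In IR29 it read 6.58, 6.67 and 6.43 in salt, against 6.18 and 6.13 in control. FL478 and IR29 therefore had separate groups, and IR63731 and Pokkali had overlapping ones. In the mean of 4 genotypes ARF14 was 1.27-fold higher (0.34 ± 0.07 SE, adjusted p = 0.00297). The call of ARF14 in FL478 alone was lost without any 1 of 5 of its 6 arrays (adjusted p from 0.0648 to 0.11). It was also lost without the 3 arrays between genotypes, of which 2 are FL478 arrays (0.68, adjusted p = 0.125).

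ARF2, ARF3 and ARF15 completed the group. ARF2 and ARF15 carry the synonyms OsETTIN2 and OsETTIN1, after the Arabidopsis factor ETTIN, which patterns floral organs. ARF2 ranged from 5.94 to 6.61 with a median of 6.30 in salt and from 5.56 to 6.23 with a median of 6.12 in control (0.26 ± 0.06 SE, adjusted p = 0.0131), and its 2 probe sets both passed. ARF15 ranged from 6.68 to 7.62 with a median of 7.24 in salt and from 6.48 to 7.27 with a median of 6.96 in control (0.26 ± 0.07 SE, adjusted p = 0.0206). Its call was lost without IR29 control replicate 2 (adjusted p = 0.0566). Its difference was 0.47 in FL478, 0.04 in IR63731, 0.40 in Pokkali and 0.14 in IR29, and these effects were not shown to differ. With the 3 arrays left out, ARF15 was the only gene of the 58 called in FL478 alone (0.70, adjusted p = 0.0477), and its difference in IR29 was 0.23.

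ARF3 ranged from 6.82 to 7.72 with a median of 7.34 in salt and from 6.57 to 7.41 with a median of 7.05 in control (0.31 ± 0.09 SE, adjusted p = 0.0344). It was the least stable call, lost without any 1 of 14 of the 23 arrays (adjusted p from 0.0522 to 0.0964) and without the 3 arrays between genotypes (0.33, adjusted p = 0.087). ARF2, ARF3, ARF14 and ARF15 are known in rice as targets of the small RNAs called tasiR-ARF. This grouping was seen only after the values. All 4 were called higher, with differences between 0.26 and 0.34, and of the other 13 ARF genes only ARF1 was called higher. That split depended on the fit. ARF10 also had a difference of 0.26 and did not pass (adjusted p = 0.123), and without the 3 arrays it stood at 0.38. With the replicate block ARF9 (adjusted p = 0.0386) and ARF10 (adjusted p = 0.0247) passed as well. ARF12, which root elongation needs in rice, had the lowest difference of the family (-0.17 ± 0.20 SE, adjusted p = 0.699).

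With the 3 prime minus 5 prime value of each array as a covariate, ARF1 (0.33) and ARF14 (0.26) still passed, and ARF2 (0.18, adjusted p = 0.157), ARF3 (0.23, adjusted p = 0.272) and ARF15 (0.20, adjusted p = 0.187) did not. The part of RNA quality in these differences was not tested beyond that fit.

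Among the Aux/IAA repressor genes, 19 of 26 differences were above 0 with a median of 0.07, and 4 genes were higher and 1 lower. For all genes these figures were 58.7% above 0, a median of 0.04, 10.7% higher and 5.41% lower. IAA10 changed most. It read 8.81, 8.99 and 8.95 in FL478 salt roots, against 7.80, 7.92 and 8.12 in control, and 8.36, 9.19 and 8.52 in IR63731 salt roots, against 7.91, 8.18 and 7.94 in control. It read 8.44, 9.06 and 8.91 in Pokkali salt roots, against 7.80, 7.80 and 7.99 in control, and 8.53, 9.50 and 8.31 in IR29 salt roots, against 8.04 and 8.36 in control. All salt arrays but IR29 replicate 3 lay at or above the highest control array of the series, 8.36, which is from IR29.

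IAA10 was 1.73-fold higher in the mean of 4 genotypes (0.79 ± 0.13 SE, adjusted p = 0.000687), with 0.97 in FL478, 0.68 in IR63731, 0.94 in Pokkali and 0.58 in IR29. No genotype passed alone (adjusted p from 0.0663 to 0.543). With the replicate block FL478 (adjusted p = 0.0142) and Pokkali (adjusted p = 0.0219) did, and IR63731 (adjusted p = 0.162) and IR29 (adjusted p = 0.257) did not. Left out 1 array at a time, the mean difference stayed between 0.70 and 0.85.

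IAA25 was 1.36-fold higher in the mean (0.44 ± 0.09 SE, adjusted p = 0.00438), with most of the difference in Pokkali. There it read 6.43, 6.86 and 6.30 in salt, against 5.36, 5.58 and 5.73 in control, so that the groups did not overlap (0.97, 1.96-fold, adjusted p = 0.0186). In FL478 it read 6.69, 6.40 and 6.49 in salt, against 6.35, 6.07 and 6.30 in control. In IR63731 it read 6.18, 6.70 and 6.48 in salt, against 6.34, 6.30 and 6.30 in control, and in IR29 6.88, 7.25 and 7.00 in salt, against 6.34 and 7.01 in control. The groups overlapped in IR63731 and IR29, where the lower control value is the array between genotypes. Without the 3 arrays the IAA25 difference in IR29 was 0.03, against 0.37 with all arrays. Its Pokkali call was lost without Pokkali control replicate 1 (adjusted p = 0.117), without Pokkali salt replicate 2 (adjusted p = 0.11) and with the RNA quality covariate (0.98, adjusted p = 0.12). Whether the salt effect on IAA25 differs between genotypes was not shown (limma's interaction test gave an adjusted p of 1, and 0.0168 before adjustment).

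IAA21 ranged from 10.61 to 11.26 with a median of 10.94 in salt and from 10.27 to 10.87 with a median of 10.64 in control (0.36 ± 0.07 SE, adjusted p = 0.00196). IAA17 ranged from 12.15 to 12.55 with a median of 12.37 in salt and from 11.98 to 12.33 with a median of 12.14 in control (0.20 ± 0.04 SE, adjusted p = 0.00203), and it is read by a probe set that may match related transcripts. In both genes salt and control arrays overlapped over the series and the salt array lay above the control array in 11 of 11 pairs of the same genotype and number. IAA4 was the 1 Aux/IAA gene lower in salt, from 5.14 to 5.42 with a median of 5.21 in salt and from 5.10 to 5.81 with a median of 5.39 in control (-0.24 ± 0.05 SE, adjusted p = 0.011). It lost its call without the 3 arrays between genotypes (-0.19, adjusted p = 0.109) and with the RNA quality covariate (-0.18, adjusted p = 0.125). All 3 of its probe sets were lower, and the 1 used here may match related transcripts.

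**Figure D3:**
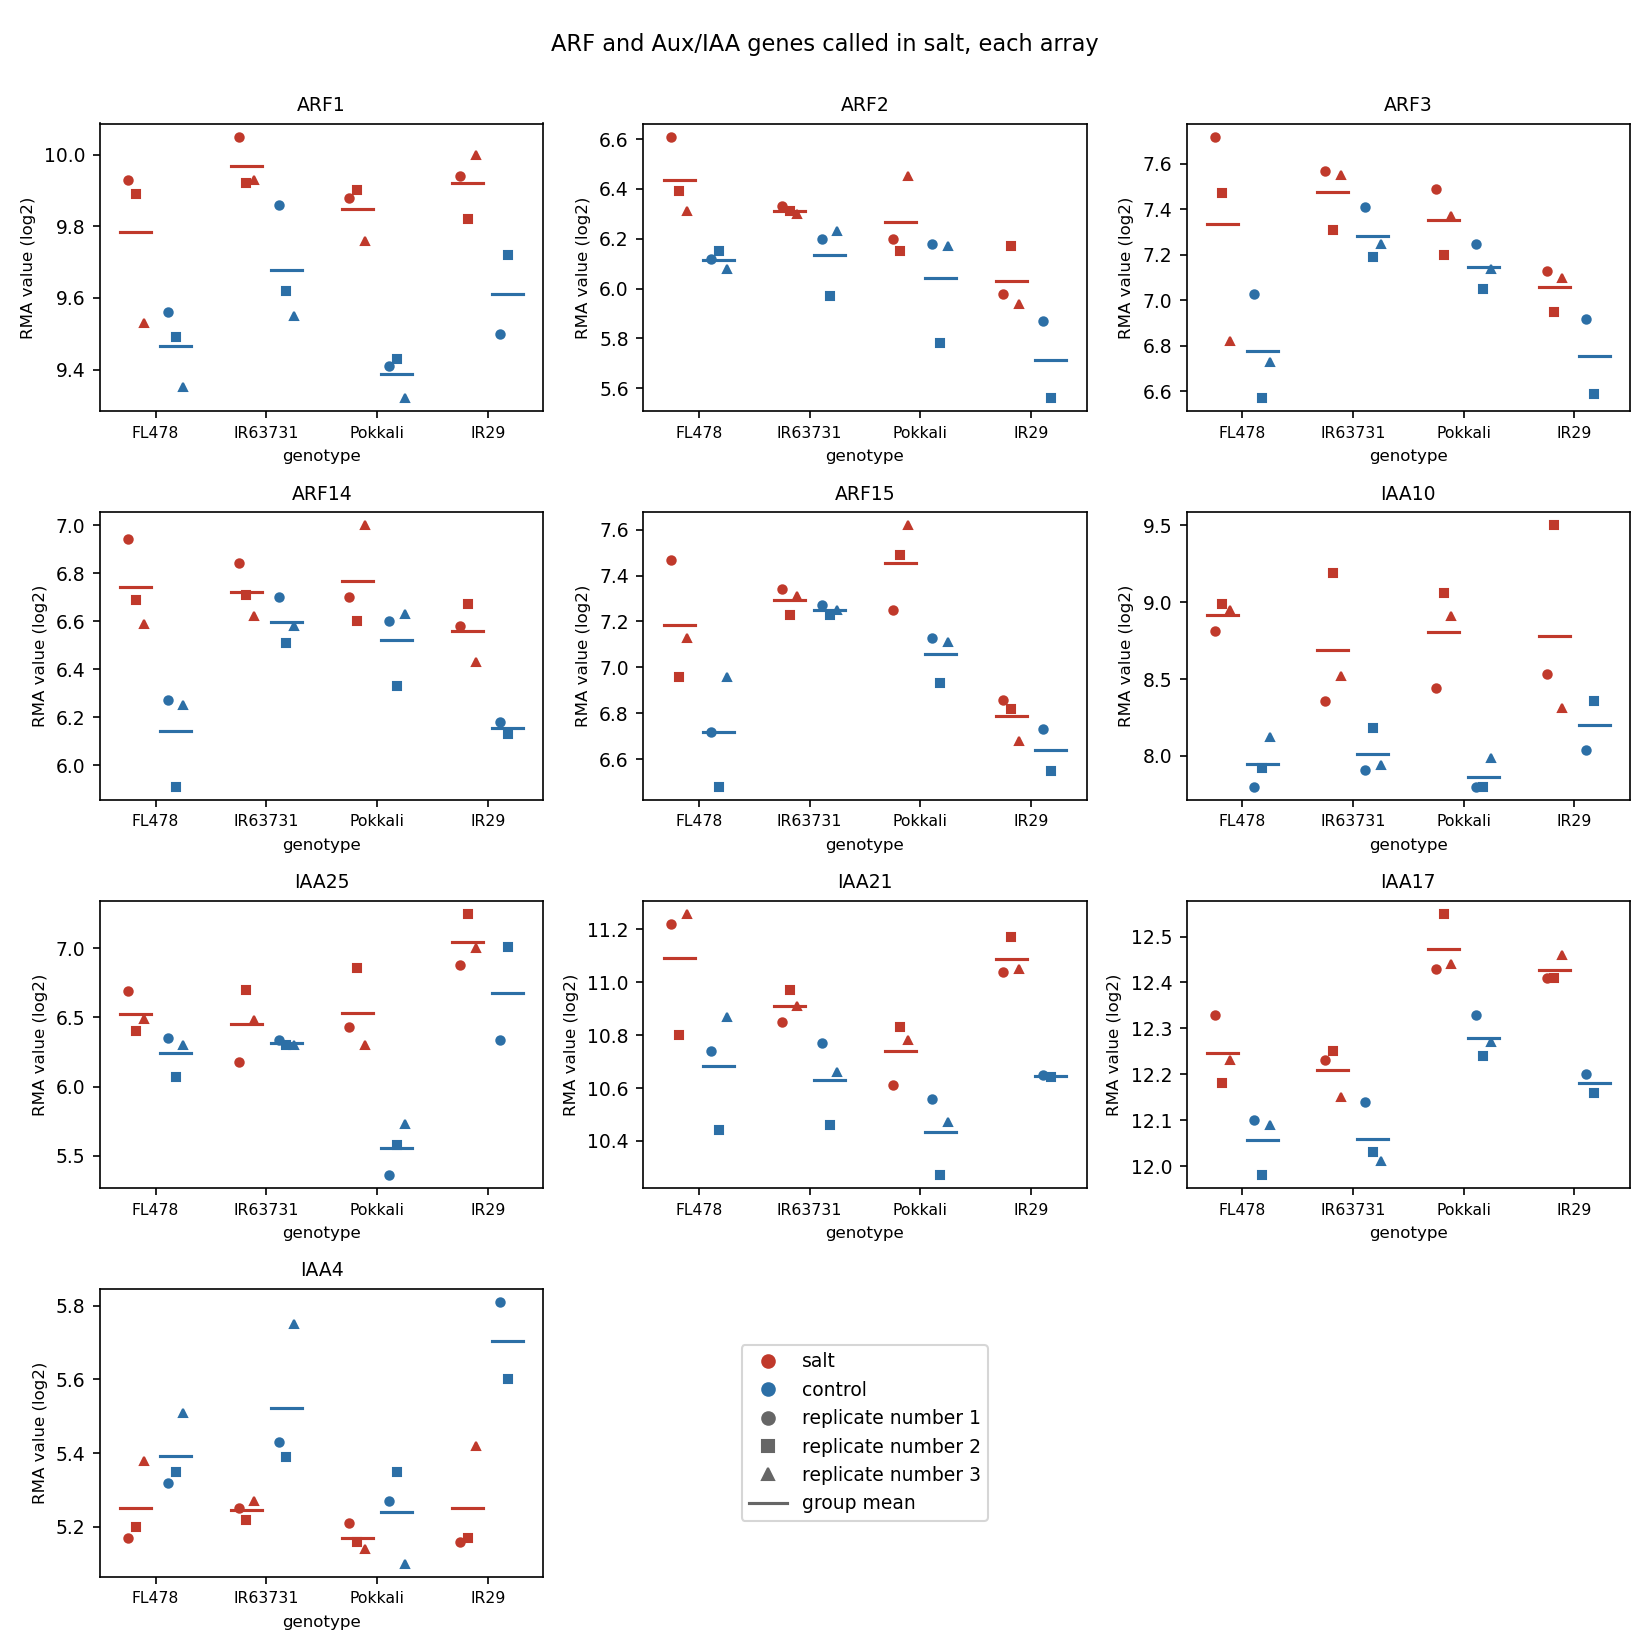
Log2 value of each ARF and Aux/IAA gene called in the mean of 4 genotypes on each array (y axis) by genotype (x axis), salt left of control, with a bar at each group mean and a symbol per replicate number. Salt means lie above control means in every genotype for all genes but IAA4; IAA10 has the widest gap and IAA25 its widest in Pokkali.

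None of the 9 GH3 genes passed in the mean of 4 genotypes by limma, and 2 had an unadjusted p under 0.05, GH3.1 and GH3.4. The share of all genes at that level is not given here. The largest differences were 0.32 ± 0.17 SE for GH3.9 (adjusted p = 0.287) and -0.16 ± 0.18 SE for GH3.5 (adjusted p = 0.687). GH3.8 and GH3.2, which in rice join the auxin indole-3-acetic acid to amino acids, had differences of 0.04 and -0.07. GH3.1 passed only without the 3 arrays between genotypes (0.41, adjusted p = 0.0189, against 0.27 with all arrays). GH3.5, also called JAR1, which joins jasmonate to isoleucine, read 9.14, 9.47 and 8.93 in Pokkali salt roots, against 10.33, 9.88 and 10.48 in control. In IR63731 it read 10.40, 8.67 and 9.98 in salt, against 9.37, 8.75 and 8.87 in control. The Pokkali groups did not overlap, but -1.05 in Pokkali did not pass (adjusted p = 0.272), nor did 0.68 in IR63731 (adjusted p = 0.653).

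Within single genotypes, few of the 58 genes passed, as few genes of the array did. In FL478 1 gene was higher and 0 lower (1.72% and 0.00%, against 1.20% and 0.793% of all genes), which was ARF14. In IR63731 0 genes were higher and 0 lower by limma, against 0.0447% and 0.0894% of all genes, and 7 had an unadjusted p under 0.05. The share of all genes at that unadjusted level is not given here, so the 7 are not read as an excess. In Pokkali 1 gene, IAA25, was higher and 0 lower (against 0.335% and 0.341% of all genes), and in IR29 0 were higher and 1, PIN9, was lower (against 0.296% and 0.274%). With the replicate block, 4 genes were higher and 2 lower in FL478 (against 3.54% and 2.32% of all genes), and 0 higher and 1 lower in IR63731 (against 0.374% and 0.335%). The genes added in FL478 by the block were ARF3, IAA10, IAA18, PIN5A and PIN5C, and in IR63731 PIN5A. IAA18 had a difference of 0.97 in FL478 (adjusted p = 0.0989 without the block and 0.0157 with it). Without the 3 arrays, the calls in single genotypes were ARF15 in FL478, against 0.296% of all genes higher there, and IAA25 in Pokkali, against 0.268%.

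Whether the salt effects differ between any of the 4 genotypes was asked with an F test of the interaction, which does not set the tolerant genotypes together against IR29. By limma 0 of the 58 genes passed, against 0.00559% of all genes, and 7 had an unadjusted p under 0.05 (12.1%, against 5.35% of all genes): IAA2, IAA14, IAA25, IAA30, GH3.5, GH3.6 and PIN9. IAA2 had the largest gap between genotypes among these repressors. It read 6.59, 7.20 and 6.40 in Pokkali salt roots, against 7.55, 7.21 and 7.59 in control, and 8.46, 7.62 and 8.10 in IR29 salt roots, against 6.79 and 7.48 in control. The salt arrays lay under the control arrays in Pokkali and above them in IR29, by -0.72 and 0.93, and the difference of these effects, -1.64 ± 0.46 SE, had an adjusted p of 0.768. The lower IR29 control value, 6.79, is on the array between genotypes, and without the 3 arrays the IAA2 difference in IR29 was 0.58.

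Genotypes were then compared without salt. Of the 58 genes, 5 differed between the 4 genotypes in control roots (8.62%, against 10.5% of all genes), namely IAA12, IAA25, ARF15, GH3.6 and ARF22. In salt roots, on other arrays, 9 differed (15.5%, against 12.9% of all genes), and these included IAA12, ARF15, GH3.6 and ARF22 beside IAA2, IAA9, IAA17, PIN3A and PIN9. When the 3 arrays were left out, 11 differed in salt roots (19.0%, against 13.3% of all genes): ARF22 (adjusted p = 0.0891) and IAA17 (adjusted p = 0.0986) did not pass, and ARF24, GH3.1, IAA14 and IAA21 did. A difference between genotypes on an array can also come with a difference in sequence under the probes, which was not tested.

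IAA12 was highest in Pokkali. In salt roots it read 10.13, 10.57 and 10.23 in FL478, 10.39, 10.32 and 10.59 in IR63731, 10.76, 10.74 and 10.72 in Pokkali, and 10.16, 10.40 and 10.14 in IR29. In control roots it read 10.20, 10.37 and 10.23 in FL478, 10.63, 10.66 and 10.65 in IR63731, 11.05, 10.86 and 11.17 in Pokkali, and 10.47 and 10.45 in IR29. Pokkali lay above every array of the other genotypes in each treatment. It exceeded IR29 by 0.57 ± 0.12 SE in control (adjusted p = 0.00995) and by 0.51 ± 0.11 SE in salt (adjusted p = 0.00692). The control difference from IR29 was lost without either IR29 control array or Pokkali control replicate 3 (adjusted p from 0.0561 to 0.0999), and the salt difference was kept with each array left out in turn. The control difference of FL478 from Pokkali was -0.76 (adjusted p = 0.000222).

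Among the genes called between genotypes in control roots, IAA25 had the widest range of control means, 1.12, and its low group was Pokkali. The range of GH3.5 was wider, 1.23, but GH3.5 did not pass the F test (adjusted p = 0.102). Pokkali control roots averaged 5.56 ± 0.18 (SD, n = 3) and IR29 control roots 6.68 ± 0.48 (SD, n = 2), a difference of -1.12 ± 0.19 SE (adjusted p = 0.00148), which was lost without IR29 control replicate 2 (adjusted p = 0.0833). Without the 3 arrays the control difference of Pokkali from IR29 was -1.46. In salt roots the group means were 6.52 in FL478, 6.45 in IR63731, 6.53 in Pokkali and 7.04 in IR29, and the genotypes did not pass (adjusted p = 0.103). The Pokkali control arrays also enter the salt difference of IAA25 in Pokkali, so that difference and the low control mean are not separate results.

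ARF15 had a lower mean in IR29 than in IR63731 and Pokkali in both treatments, and not every pair passed. Salt roots averaged 7.29 ± 0.06 in IR63731, 7.45 ± 0.19 in Pokkali and 6.78 ± 0.09 in IR29 (SD, n = 3 each). Control roots averaged 7.25 ± 0.02 in IR63731 (SD, n = 3), 7.06 ± 0.11 in Pokkali (SD, n = 3) and 6.64 ± 0.13 in IR29 (SD, n = 2). Pokkali exceeded IR29 by 0.67 ± 0.13 SE in salt (adjusted p = 0.00271) and by 0.41 in control, which did not pass (adjusted p = 0.146). IR63731 exceeded IR29 by 0.51 in salt (adjusted p = 0.0365) and by 0.61 in control, which missed the threshold for that pair (adjusted p = 0.0591). That control difference passed without the 3 arrays (0.70, adjusted p = 0.0321). The salt difference of IR63731 was lost without any 1 of the 6 salt arrays of these genotypes (adjusted p from 0.0644 to 0.163), and that of Pokkali was kept with each array left out in turn.

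GH3.6 was highest in IR29 in salt, at 9.47 ± 0.12 (SD, n = 3), where FL478 averaged 8.95 ± 0.11 and Pokkali 8.99 ± 0.14 (SD, n = 3 each). The difference from IR29 in salt was -0.52 ± 0.10 SE in FL478 (adjusted p = 0.00435) and -0.48 in Pokkali (adjusted p = 0.00456). In control it was -0.52 in Pokkali (adjusted p = 0.00918, lost without either IR29 control array, at 0.075 and 0.0691) and -0.16 in FL478, which did not pass. ARF22 was lowest in IR29 in both treatments, at 9.16 ± 0.03 in salt (SD, n = 3) and 9.12 ± 0.03 in control (SD, n = 2). Pokkali exceeded IR29 by 0.53 in salt (adjusted p = 0.0121) and by 0.61 in control (adjusted p = 0.0155). The salt difference was lost without any 1 of 2 arrays (adjusted p at most 0.0844) and the control difference without any 1 of 3 (at most 0.143). Without the 3 arrays between genotypes, IAA12, IAA25 and ARF15 still differed in control roots, and GH3.6 (adjusted p = 0.0503) and ARF22 (adjusted p = 0.208) did not. With 1 array left out at a time, IAA12 and IAA25 kept their call in the F test of the 4 genotypes in control roots throughout, while the loss of any 1 of 4 arrays ended the call of ARF15 (adjusted p at most 0.0671) and of GH3.6 (at most 0.127), and the loss of any 1 of 15 that of ARF22 (at most 0.184).

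**Figure D4:**
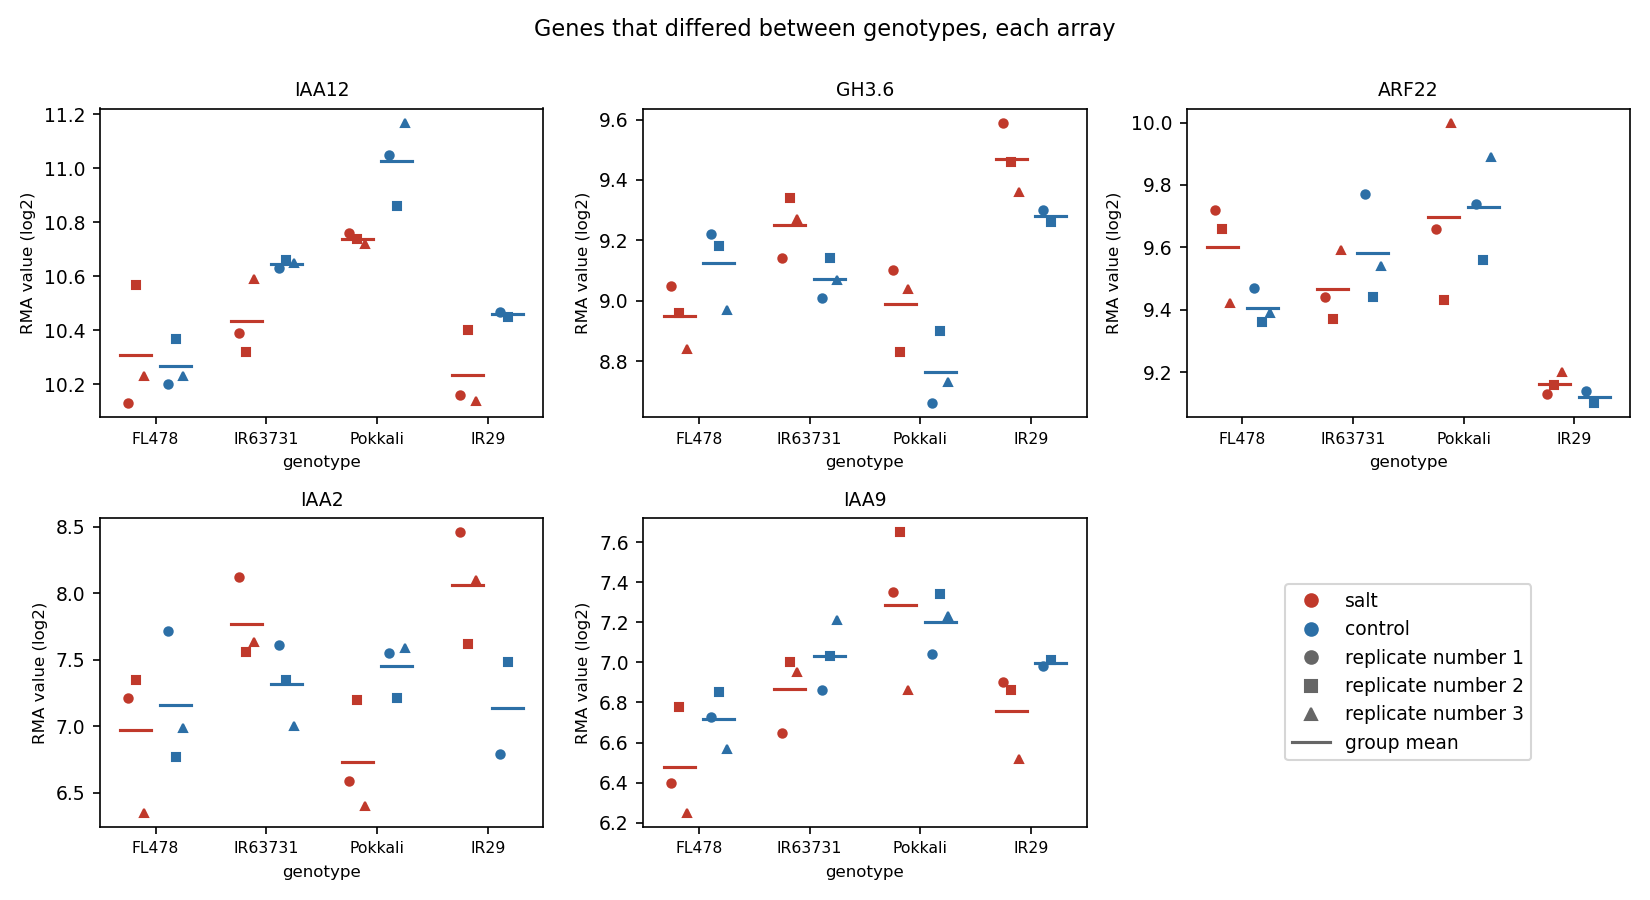
Log2 value of 5 genes that differed between genotypes in control or salt roots on each array (y axis) by genotype (x axis), salt left of control, with a bar at each group mean and a symbol per replicate number. IAA12 is highest in Pokkali and ARF22 lowest in IR29 in both treatments, and IAA2 in IR29 and IAA9 in Pokkali have their highest means in salt.

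PIN9 had the largest range between genotypes in salt roots, 2.17 between the highest and the lowest group mean. Salt roots averaged 8.47 ± 0.46 in FL478, 9.05 ± 0.75 in IR63731, 9.40 ± 0.10 in Pokkali and 7.23 ± 0.49 in IR29 (SD, n = 3 each), and no IR29 salt array reached the lowest of the other genotypes. PIN9 was higher than in IR29 by 1.24 in FL478 (adjusted p = 0.0442), a call lost without any 1 of 13 of the 23 arrays (adjusted p from 0.053 to 0.177) and without the 3 arrays between genotypes (0.99, adjusted p = 0.125). It was higher by 1.83 in IR63731 (adjusted p = 0.00259) and by 2.17 in Pokkali (4.51-fold, adjusted p = 0.000271). Control roots averaged 9.71 in FL478, 9.75 in IR63731, 9.67 in Pokkali and 9.10 in IR29, and no pair with IR29 passed there (adjusted p from 0.544 to 0.733). The IR29 control mean is of 9.69, on the array between genotypes, and 8.51. Without the 3 arrays PIN9 in control was higher than in IR29 by 1.34 in FL478, 1.24 in IR63731 and 1.16 in Pokkali (adjusted p from 0.163 to 0.2), against 0.61, 0.65 and 0.57 with them, and IR29 had the lowest control mean in both cases. Whether the gap differs between salt and control was not shown (the interaction test above).

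PIN3A ran the other way in salt roots, with a difference from IR29 of -0.63 in FL478 (adjusted p = 0.0299), -0.67 in IR63731 (adjusted p = 0.0211) and -0.54 in Pokkali, which did not pass with all arrays (adjusted p = 0.0512) and did without the 3 arrays (adjusted p = 0.0314). Each of the PIN3A calls in FL478 and IR63731 was lost without any 1 of 3 arrays (adjusted p at most 0.2). The genotype difference of PIN3A was lost without IR29 salt replicate 1 (adjusted p = 0.224). IAA2 in salt roots averaged 6.73 ± 0.42 in Pokkali and 8.06 ± 0.42 in IR29 (SD, n = 3 each), a difference of -1.33 (adjusted p = 0.00956) that was lost without IR29 salt replicate 1 (0.0683) or Pokkali salt replicate 3 (0.0568). IAA9 in salt roots averaged 6.48 ± 0.27 in FL478 and 7.29 ± 0.40 in Pokkali (SD, n = 3 each), a difference of -0.81 (adjusted p = 0.011) that was lost without any 1 of 3 arrays (at most 0.0823), and IAA17 spanned 0.26 between its genotype means. In the F test of the 4 genotypes in salt roots, PIN9 and GH3.6 kept their calls with each array left out in turn. ARF15 lost its call without IR29 salt replicate 3 (adjusted p = 0.0698) and IAA2 without IR29 salt replicate 1 (adjusted p = 0.0594). The loss of any 1 of 4 arrays ended the call of IAA9 (adjusted p at most 0.135), any 1 of 5 that of IAA12 (at most 0.0858), any 1 of 9 that of ARF22 (at most 0.145) and any 1 of 10 that of IAA17 (at most 0.101).

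The replicate number was examined last, since PIN5A showed that it touches these genes. With group in the fit, 11 of the 58 genes differed between the 3 numbers (19.0%, against 14.0% of all genes): SAUR39, PIN5A, GH3.9, GH3.11, ARF4, ARF9, ARF10, ARF17, IAA18, IAA20 and IAA23. SAUR39, in rice a negative regulator of auxin synthesis and transport, was extreme. It ranged over 4.68 to 7.10 on the 8 arrays of number 1, over 7.56 to 8.13 on the 8 arrays of number 2, and over 4.03 to 5.58 on the 7 arrays of number 3. Every array of number 2 was above every other array, in all 4 genotypes and both treatments. Number 3 lay below number 2 by -3.01 (F = 66.83, adjusted p = 2.29e-05 for the 3 numbers), while salt against control was 0.13 ± 0.60 SE (adjusted p = 0.941).

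GH3.9 showed the number in another way. Its number 3 arrays read 8.53 in FL478, 8.61 in IR63731, 8.56 in Pokkali and 8.29 in IR29 in salt, against 7.80, 7.66 and 7.69 in FL478, IR63731 and Pokkali control roots. The salt arrays of numbers 1 and 2 lay between 7.14 and 8.11. All 4 salt arrays of number 3 therefore lay above every other array, and whether the salt effect on GH3.9 differs between numbers was not tested. Of the 11, PIN5A alone also passed between salt and control in the mean of 4 genotypes without the replicate block, and with the block ARF9, ARF10, IAA18 and IAA23 passed as well.

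**Figure D5:**
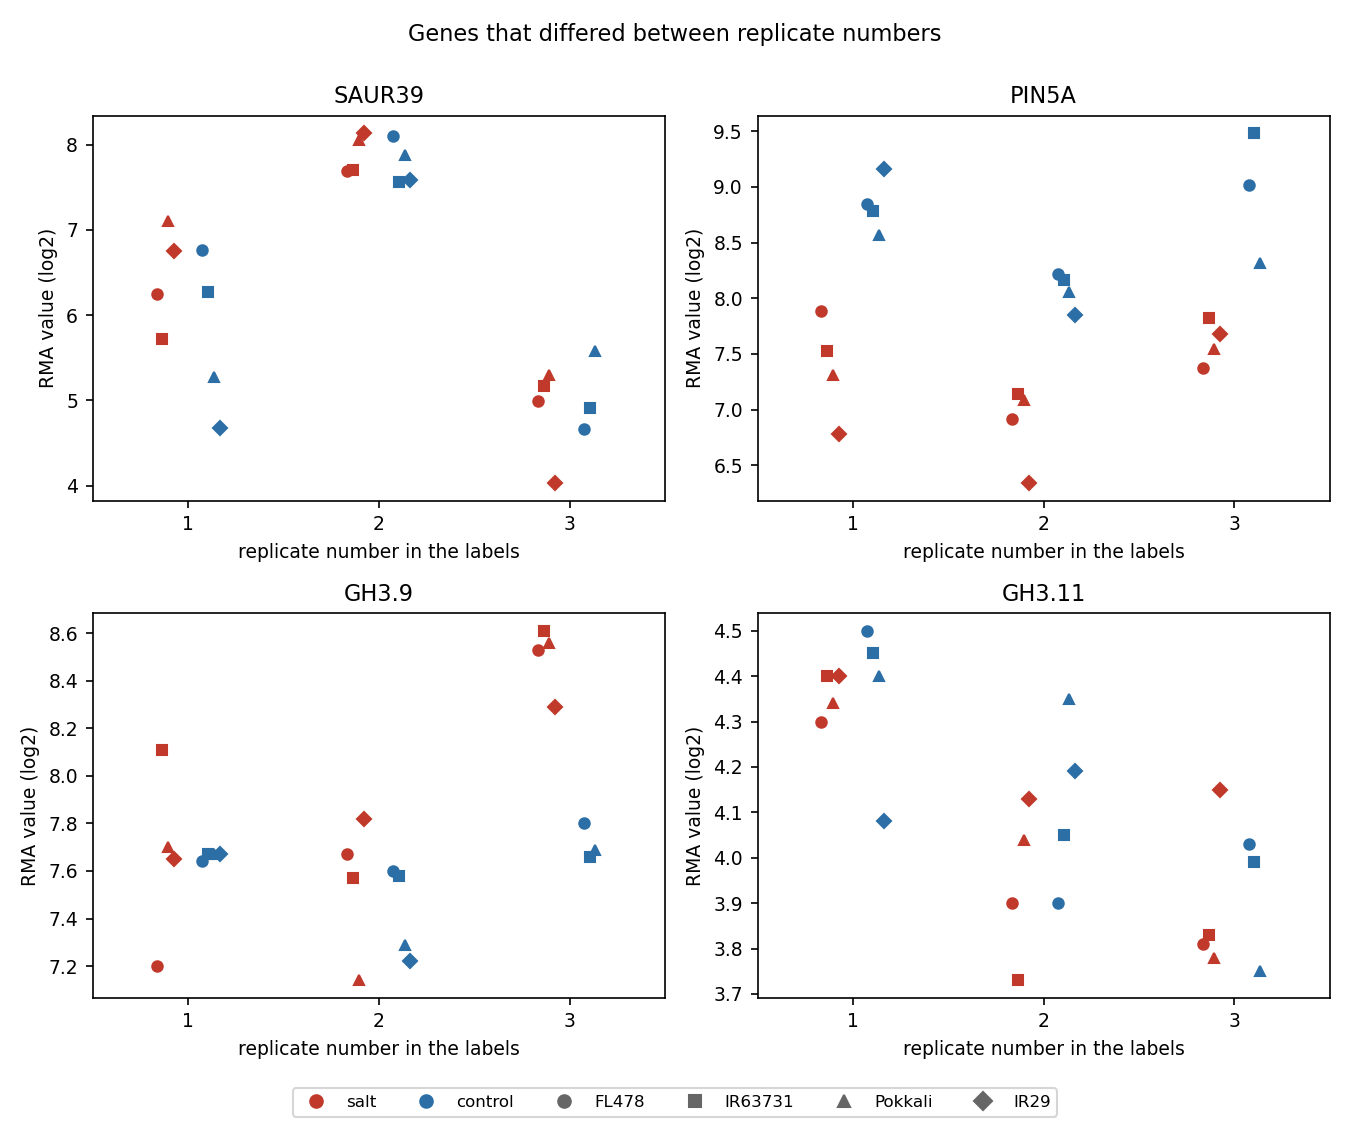
Log2 value of 4 genes on each array (y axis) by the replicate number in the labels (x axis), salt left of control, with a symbol per genotype. SAUR39 lies between 7.56 and 8.13 on all arrays of number 2, PIN5A is lower in salt within every number, and GH3.9 is at 8.29 or higher on the 4 salt arrays of number 3 and on no other array.

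Other genes of auxin synthesis, breakdown and signalling were taken from a list by name, of which 17 had a probe set of their own. In the mean of 4 genotypes 2 were higher in salt (against 10.7% of all genes), 1 was lower (against 5.41%) and the median was 0.05 (against 0.04), so the list stood near the background. The 3 called genes belong to the ILL family, whose Arabidopsis relatives release auxin from its amino acid conjugates, and 8 genes of conjugate hydrolysis and oxidation were measured. ILL3 was 2.15-fold lower (-1.10 ± 0.14 SE, adjusted p = 0.000107), at levels that differed widely between genotypes. It averaged 7.10 in salt and 8.76 in control in FL478, 3.92 in salt and 4.61 in control in IR63731, 6.81 in salt and 8.26 in control in Pokkali, and 3.89 in salt and 4.52 in control in IR29. It passed in FL478 (-1.65, adjusted p = 0.00865) and in Pokkali (-1.45, adjusted p = 0.0308), and in neither without the 3 arrays (-1.57, adjusted p = 0.0957, and -1.45, adjusted p = 0.0505). ILL2, read by a probe set that may match related transcripts, was higher (0.60 ± 0.15 SE, adjusted p = 0.0183), as was ILL5 (0.21 ± 0.05 SE, adjusted p = 0.014). None of the 2 synthesis genes, the 2 corepressors, the 2 genes of polarity and trafficking and the 3 root targets passed.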

How the data were processed

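Per the labels' protocols, TRIzol and spin columns gave root RNA, which was DNase-treated and labelled with biotin. Per the submitters' processing notes the arrays went through RMA, and the deposited table holds log2 values, 1 column per array. Which software ran RMA, which probe set definition it used and which genome build lies behind the annotation were points not given in the sources used here, and coordinates are left out. The table has 57381 probe sets, of which 57194 were tested after dropping 123 AFFX control and 64 reporter probe sets.

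Gene identities came from GEO's platform annotation (22436 probe sets with 1 gene, 95 with several, 34663 with none listed) and names from the RefSeq table of assembly ASM3414082v1. All 17905 genes were found in that table. The genes and lists were chosen with earlier results of these data known. A gene was represented by its single-gene probe set with the highest mean; 4 of the 58 genes rest on an _s_at or _x_at probe set, and of 11 genes with several probe sets 7 had all of them in 1 direction.

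limma 3.58.1 in R 4.3.3 fitted 8 group means over all 23 arrays, with eBayes and two-sided tests, Benjamini-Hochberg adjusted over all probe sets at a threshold of 0.05. Contrasts were salt minus control in each genotype and in their mean, F tests of the interaction and of genotypes within each treatment, and an F test of the replicate number beside group. The genes named are those called in the mean of 4 genotypes or in a single genotype, those called between genotypes in control roots, all PIN genes and the largest change each way in each family; IAA2, IAA9, IAA14, IAA18, IAA30, ARF24, GH3.1, GH3.2, GH3.4, GH3.8 and the genes called by replicate number or in salt roots alone were added after their values were seen. Same-numbered salt and control arrays deviated together in FL478 (correlations 0.421, 0.197 and 0.287) and IR63731 (0.142, 0.296 and 0.252), above the minimum of 0.1, and not in every pair of Pokkali (-0.066, -0.016 and 0.316) and IR29 (-0.179 and 0.119).

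On simulated data with known changes, 59 of 67 simulated 1.5-fold changes were found in the mean of 4 genotypes, as were all 67 at 2-fold and all 66 at 4-fold, and 11 unchanged probe sets were called. In FL478 alone 40 of 67 were found at 1.5-fold, 56 of 67 at 2-fold and 62 of 66 at 4-fold. At 1.5-fold 33 of 67 were found in Pokkali, 31 in IR63731 and 29 in IR29. The simulated noise was independent between arrays, and each change was the same in every genotype. No effect of the replicate number and no array between genotypes was put in, and recovery with these was not tested. Alternatives were the replicate block, the fit without 3 arrays, an RNA quality covariate, array weights, eBayes with trend and robust, a filter at the median probe set, quantile normalization again, other choices of probe set, fits of 1 genotype, and leaving out each array. Python 3.11.15 with pandas 2.3.3 drew the plots through matplotlib 3.10.9. The number of arrays limits the precision.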

Additional observations from a re-analysis of the deposited data

How the results depend on the processing

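The counts of genes higher and lower in the mean of 4 genotypes stayed within 1.5 times their value under every alternative run: 13 and 4 with the replicate block (22.4% and 6.90%, against 15.6% and 8.10% of all genes), 10 and 3 without the 3 arrays between genotypes, and 7 to 10 and 4 to 5 with 1 array left out. With the RNA quality covariate the higher genes were ARF1, ARF14, IAA10, IAA17, IAA21 and IAA25, and the lower ones PIN5A, PIN5C and PIN9. These are fewer each way than with any 1 array left out. Counts in single genotypes rest on few calls. With the replicate block they were 6 in FL478 (against 3.54% of all genes higher and 2.32% lower) and 1 in IR63731 (0.374% and 0.335%). With the block they were 4 in Pokkali (1.91% and 1.37%) and 2 in IR29 (0.827% and 0.626%). With array weights they were 2 in FL478 and 2 in Pokkali, and with the filter at the median probe set 2 in FL478. With the 3 prime minus 5 prime covariate they were 0 in Pokkali and 0 in IR29. With only the arrays of a genotype they were 0 in FL478, Pokkali and IR29. With 1 array left out they were 0 to 3 in FL478, 0 to 0 in IR63731, 0 to 2 in Pokkali and 0 to 1 in IR29. Genes that differed between genotypes in control roots numbered 11 with the replicate block (19.0%, against 14.7% of all genes), 11 with array weights, 3 without the 3 arrays and 2 to 8 with 1 array left out, and those in salt roots 4 to 10 with 1 array left out. Counts given here without a share of all genes were not compared with the array as a whole. The interaction called 0 throughout. Differences that missed the threshold and changed sign were ARF22 with the covariate (-0.06), GH3.5 with the covariate (0.07), and PIN3A (-0.02) and SAUR39 (-0.64) without the 3 arrays; with 1 array left out, ARF22 ranged from -0.02 to 0.05 and SAUR39 from -0.24 to 0.49. ARF15 missed the threshold after quantile normalization again (0.22, adjusted p = 0.0522), and IAA12 passed with the filter at the median probe set (-0.17, adjusted p = 0.0462). Of 801 recomputed values of single genes, 744 kept their direction and side of the threshold. The cause was not tested in any of these.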
